A study of Mus musculus with 4 samples.

Results

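The genes of ceramide and sphingolipid metabolism were examined in bronchoalveolar lavage fluid (BALF) cells of bleomycin-administered mice. The members were a list of 39 genes of this pathway, given by name with earlier results of these data known, out of 20832 genes that had a named probe on the array, and all 39 had a probe. Their expression was measured on 4 Agilent arrays read in a single color, 2 of wild-type mice and 2 of S1pr2-/- mice, which lack the sphingosine-1-phosphate (S1P) receptor S1PR2. Wild-type controls were littermates of the null mice, and the strain was mixed, with a single backcross to C57BL/6J. Both genotypes were aged 8 to 10 weeks and were given bleomycin, a drug that damages the lung and induces fibrosis, at 0.035 U/g by intraperitoneal injection 2 times a week, and BALF cells were collected on day 22. There was no saline group among these arrays, so every value belongs to lungs under bleomycin. The sample records call the material alveolar macrophages, but no sort is described, and the arrays held RNA of all cells in the lavage. Any pooling of mice for these arrays was not given in the sources used here. The records speak of independent experiments and RNA samples but tie no array to a mouse, so the errors and p-values measure only the spread between these arrays.

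Sphingolipids are built on a backbone that serine palmitoyltransferase makes from serine and palmitoyl-CoA in the endoplasmic reticulum, and ceramide synthases attach a fatty acid to it to give, after desaturation, ceramide. Ceramide is the branch point of the pathway: it is turned into sphingomyelin or glucosylceramide, phosphorylated, or cleaved by ceramidases to sphingosine, from which S1P, the ligand of S1PR2, is made. Alveolar macrophages take up and digest surfactant, and their lysosomes hold the hydrolases and activator proteins that take complex sphingolipids apart.

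The values are log2 of the background-corrected intensity over the 75th percentile of the same array, so 0 is the level of that percentile, and values under 0.01 of it were set to 0.01, which is -6.64 on this scale. Differences are given as arrays labelled S1pr2-/- minus wild-type arrays. The 75th percentiles lay between 2489 and 2817 intensity units, and the share of probes well above background ran from 67.5% to 72.1%. All 4 arrays lay on 1 slide with 1 scan, so there was no slide or scan batch to compare. The targeted gene goes against the label: its probe read 2.67 and 2.54 under the label S1pr2-/- against -0.13 and -0.16 in wild-type, higher by 2.75 (standard error 0.072, adjusted p = 0.332, limma). Whether this probe lies within the deleted part of the gene is not known here, and all directions follow the labels. All 14 alveolar macrophage markers, such as Siglecf, Marco and Mrc1, were well above background on all 4 arrays, with an intensity summing to 1009 and 1108 times the 75th percentile in wild-type and to 1006 and 1103 under the label S1pr2-/-.

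Most members were expressed and differed little between the genotypes. Of the 39 members, 35 were well above background on all 4 arrays and 36 passed the filter for testing, which asked that both arrays of 1 genotype or the other show the probe well above background. The alkaline ceramidase Acer2, the dihydroceramide desaturase Degs2 and the S1P phosphatase Sgpp2 did not pass: Degs2 and Sgpp2 were at the floor on all 4 arrays, and Acer2 was well above background on wild-type replicate 1 alone (-4.76). No member was called by limma at an adjusted p under 0.05 (0 of 36, against 0% of all 15411 genes tested in each direction). At an unadjusted p under 0.05, limma gave 4 members as higher on the arrays labelled S1pr2-/- (11.1%, against 4.56% of all genes tested), namely the neutral ceramidase Asah2, the galactosidases Galc and Glb1, and Smpdl3a. It gave 3 as lower (8.33%, against 5.96%), namely the neutral sphingomyelinase Smpd3, the glucosylceramidase Gba2 and the galactosidase Gla. Smpd3 passed the filter through the wild-type arrays alone and was at the floor on the others, so its p is no support for a difference. Without Smpd3, 2 of 35 members were lower (5.71%), near the share of all genes tested. The higher count fell to 1 without wild-type replicate 2 and to 2 without S1pr2-/- replicate 1, and the lower count to 1 without S1pr2-/- replicate 1 and to 0 without S1pr2-/- replicate 2. Over all 15411 genes tested, the higher count went from 702 to 399 without wild-type replicate 2 and to 797 without S1pr2-/- replicate 1, and the lower count from 918 to 616 without S1pr2-/- replicate 1 and to 598 without S1pr2-/- replicate 2. The arrays of the genotypes did not overlap for 14 members on the higher side (38.9%, against 22.2% of all genes tested) and for 4 on the lower side (11.1%, against 21.9%), and they overlapped for 18.

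The differences leaned to the arrays labelled S1pr2-/- by a small amount. The log2 fold change was above 0 for 27 of 36 members (75%, against 49.6% of all genes tested), with a median of 0.09 against 0.00 for all genes tested. It lay within 0.2 of 0 for 30 of the 36 (83.3%, against 70.7%). This lean rested in part on single arrays, since the median was 0.03 without wild-type replicate 2 and 0.03 without S1pr2-/- replicate 1, and 22 of 36 members kept their sign whichever array was left out. Over the members, the median absolute difference between replicate arrays was 0.11 in wild-type and 0.10 in S1pr2-/-. Between the genotype means it was 0.12. The former are differences of single arrays and the latter of means of 2 arrays, which vary less, so these values are not like measures. BALF cells are a mixture, so that fewer cells of a type and less RNA per cell cannot be told apart in any of these values.

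**Figure D1:**
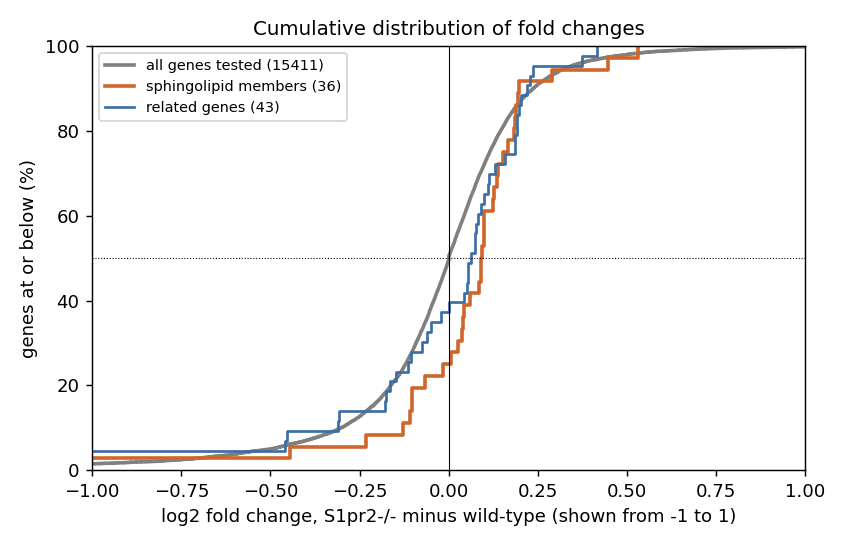
Cumulative distribution of log2 fold changes (S1pr2-/- minus wild-type, horizontal axis, shown from -1 to 1) over the 36 members tested, the 43 related genes tested and all 15411 genes tested, with the share of genes at or below each value in percent on the vertical axis. The curve of the members crosses 50% at 0.09 and that of all genes at 0.00, and Smpd3 at -2.83 lies off the left edge.

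The 5' flanking sequence is shown for the members with an unadjusted p under 0.05, so that their promoters can be set side by side. RefSeq windows of the build GRCm38.p6, from 250 bases before to 50 bases after each gene's start, were at hand for 36 of the 39 members and for 5 of these 7 genes. The 250 bases before the start are printed 5′ to 3′ on the gene's strand. Capitals mark the E-box CACGTG, with its flanks where they extend it to TCACGTGA, a form of the element bound by the lysosomal regulator TFEB, and the GC box GGGCGG on either strand.
Gla, chrX:134601006-134601255, minus strand: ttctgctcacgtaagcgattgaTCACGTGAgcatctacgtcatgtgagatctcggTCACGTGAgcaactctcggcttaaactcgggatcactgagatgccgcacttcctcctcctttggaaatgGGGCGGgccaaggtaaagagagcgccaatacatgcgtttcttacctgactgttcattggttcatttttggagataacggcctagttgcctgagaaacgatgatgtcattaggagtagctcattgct
Glb1, chr9:114400828-114401077, plus strand: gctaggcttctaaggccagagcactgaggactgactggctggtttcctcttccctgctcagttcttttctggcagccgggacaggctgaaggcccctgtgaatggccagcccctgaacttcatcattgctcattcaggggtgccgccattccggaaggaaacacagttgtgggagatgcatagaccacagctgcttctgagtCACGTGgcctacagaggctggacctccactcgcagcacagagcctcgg
Galc, chr12:98259460-98259709, minus strand: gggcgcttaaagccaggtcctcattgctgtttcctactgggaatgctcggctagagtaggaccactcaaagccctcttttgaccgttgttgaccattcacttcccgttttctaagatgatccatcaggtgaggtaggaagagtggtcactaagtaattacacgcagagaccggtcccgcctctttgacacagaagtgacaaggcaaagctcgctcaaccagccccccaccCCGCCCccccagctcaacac
Gba2, chr4:43578865-43579114, minus strand: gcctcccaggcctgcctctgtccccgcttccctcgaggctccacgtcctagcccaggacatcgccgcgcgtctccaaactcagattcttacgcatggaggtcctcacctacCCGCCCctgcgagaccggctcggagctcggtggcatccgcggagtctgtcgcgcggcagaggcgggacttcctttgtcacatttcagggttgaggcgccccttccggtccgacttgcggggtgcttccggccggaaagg
Asah2, chr19:32103141-32103390, minus strand: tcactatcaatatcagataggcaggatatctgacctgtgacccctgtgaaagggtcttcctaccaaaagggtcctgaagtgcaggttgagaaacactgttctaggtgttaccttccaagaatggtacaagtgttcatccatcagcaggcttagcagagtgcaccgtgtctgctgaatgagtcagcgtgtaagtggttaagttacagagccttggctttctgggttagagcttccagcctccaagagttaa
Gla, which was lower, held 2 copies of TCACGTGA, from -228 to -221 and from -195 to -188 relative to the start, and it was the 1 member among the 36 with this element, against 1.12% of all 27025 genes with a window. Glb1, which was higher, held CACGTG from -48 to -43 without those flanks. Its window also held GC boxes from -1 to 5, from 5 to 10 and from 17 to 22, which reach past the printed part. The window of Gla held GC boxes from -126 to -121 and from 8 to 13. The windows of Galc and Gba2 each held 1 GC box, in the printed part and on the reverse strand, and no E-box, and the window of Asah2 held neither.

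Counted over the whole 300-base windows on both strands, with a gene counted once if any of its starts has a match, CACGTG was present in 10 of 36 members (27.8%, against 8.09% of all 27025 genes with a window). Besides Gla and Glb1 these were Arsa, Cers2, Cers6, Degs1, Sgms2, Sgpp2, Smpd2 and Smpdl3b, whose log2 fold changes, where tested, lay between 0.04 and 0.19. GGGCGG was present in 30 of 36 (83.3%, against 38.2%). TTC and GAA with 4 bases between them, the spacing that STAT6 prefers, were present in Gm2a, Smpdl3b and Sptlc2 (8.33% of the members, against 8.01%). TCACGTGA contains CACGTG, so its copies are counted under both. The genes with a window were not limited to those measured or expressed here, so no share is read as particular to the pathway. These matches describe letters in the windows, and no binding was measured.

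Of the 3 members of serine palmitoyltransferase, which catalyses the first step, 2 were higher without overlap on the arrays labelled S1pr2-/- (against 22.2% of all genes tested) and 1 overlapped, and none passed an unadjusted p under 0.05 (0 of 3, limma). Sptlc1, a subunit of serine palmitoyltransferase, read 0.59 and 0.48 in wild-type against 0.72 and 0.73 on the arrays labelled S1pr2-/-. Both of the latter lay above both wild-type arrays, by 0.19 (standard error 0.069, adjusted p = 0.535, limma). The catalytic subunit Sptlc2 likewise did not overlap, with 0.13 and 0.02 against 0.20 and 0.32, and its second probe differed in the same direction by 0.07 against 0.18 for the first. The small activating subunit Sptssa overlapped, from 1.58 to 1.77 against 1.61 to 1.95. Sptlc3, a further subunit that is not a member and was looked up after the values were seen, overlapped with a difference of -1.07, and read -4.19 and -6.45 in wild-type against -6.42 and -6.36 on the other arrays. The ORMDL proteins, which hold serine palmitoyltransferase back when ceramide is plentiful, showed no common direction: Ormdl1 was higher without overlap by 0.06, Ormdl3 was lower without overlap at -0.07, and the 2 probes of Ormdl2 differed by 0.01 and -0.03. The 95% intervals of these 3 genes all held 0 and reached no further than -0.29 and 0.31.

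Of the 6 tested genes that carry the backbone on to ceramide, 3 were higher without overlap on the arrays labelled S1pr2-/- and 0 were lower, against 22.2% and 21.9% of all genes tested, and with 6 genes nothing particular to this step is read from the count. Kdsr, the reductase of the second step, read -0.35 and -0.32 in wild-type against -0.24 and -0.23 on the others. Degs1, the desaturase that turns dihydroceramide into ceramide, read 3.98 and 3.98 against 4.09 and 4.04. Cers2, the synthase for very long acyl chains, read 1.71 and 1.72 against 1.79 and 1.91, the largest difference of the 3 at 0.14. These differences are small, and the arrays labelled S1pr2-/- differed by nearly as much from each other for Cers2. The synthases Cers5 and Cers6, which use palmitoyl-CoA, overlapped, with differences of 0.04 and 0.09. Cers4, a synthase for long chains, had the widest spread of the 6, with -1.75 and -1.72 in wild-type against -1.46 and -2.27 on the arrays labelled S1pr2-/-, so that its sign turned on which of the latter was kept (0.28 without S1pr2-/- replicate 2 and -0.53 without S1pr2-/- replicate 1).

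The enzymes that place a head group on ceramide overlapped between the genotypes, and Gba2, which removes one, did not. The sphingomyelin synthases Sgms1 and Sgms2 and Samd8, which makes ceramide phosphoethanolamine, differed by 0.09, 0.13 and 0.13 and overlapped in each case. Ceramide kinase, Cerk, read from 4.57 to 4.69 against 4.61 to 4.70, and its difference of 0.03 had a 95% interval from -0.21 to 0.27. Ugcg, which makes glucosylceramide, read -0.45 and -0.27 against -0.56 and -0.37, with overlap. Gba2 is the glucosylceramidase outside the lysosome. It read 1.67 and 1.86 in wild-type against 1.35 and 1.29 on the arrays labelled S1pr2-/-. Both of the latter were clearly under both wild-type arrays, a 1.36-fold lower signal (difference -0.44 on the log2 scale, standard error 0.096, adjusted p = 0.509, limma). Over the other settings with all arrays its difference lay between -0.45 and -0.41.

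**Figure D2:**
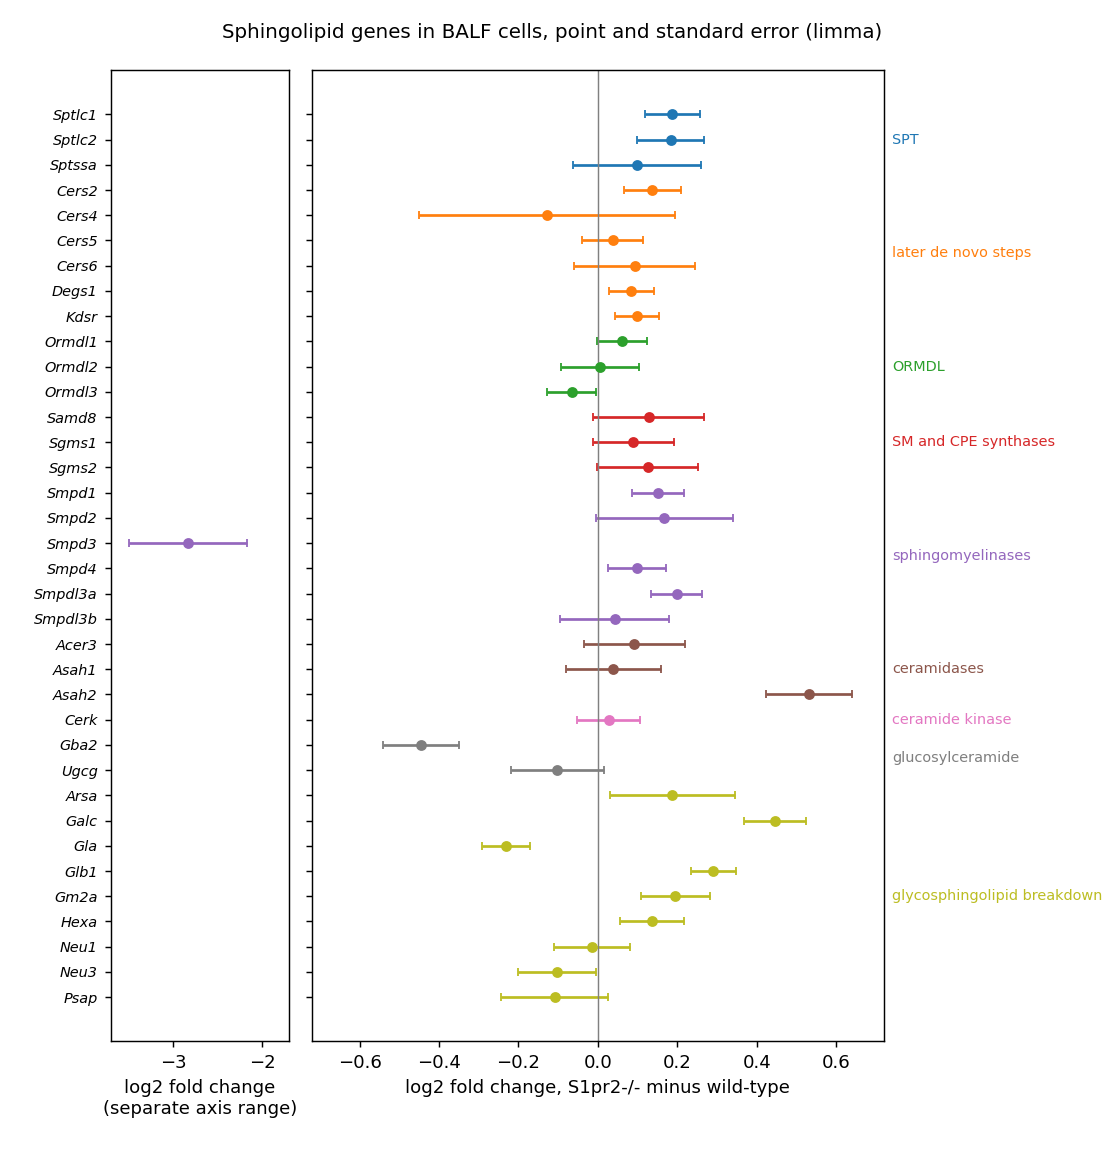
Log2 fold change (S1pr2-/- minus wild-type, horizontal axis) of the 36 members tested, with bars of 1 standard error from limma, grouped and colored by role (SPT, serine palmitoyltransferase; SM, sphingomyelin; CPE, ceramide phosphoethanolamine). Smpd3 at -2.83 is drawn on a separate range of the axis, and 30 of the 36 points lie within 0.2 of 0.

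Among the sphingomyelinases, Smpd3 stood apart. Smpd3 encodes neutral sphingomyelinase 2, which releases ceramide from sphingomyelin at membranes. It read -4.66 on wild-type replicate 1 and -2.97 on wild-type replicate 2, and was down at the floor, not well above background, on each array labelled S1pr2-/-. Both wild-type arrays were thus above the others but differed widely from each other. With the floor standing for the arrays labelled S1pr2-/-, the signal was 7.11-fold lower there (fitted difference -2.83 on the log2 scale, standard error 0.66, adjusted p = 0.509, limma). It was 3.97-fold lower against wild-type replicate 1 alone and 12.8-fold lower against wild-type replicate 2 alone. These folds are set by the floor and are not lower bounds. Smpd3 passed the filter through the wild-type arrays alone, and its values on the other arrays are the floor itself, so its standard error and p rest on the spread of the wild-type arrays and are no support for a difference. By these values it was the 1 member past 1.5-fold at an unadjusted p under 0.05 (background 1.93% lower, and 0.578% higher with 0 members). The fitted size depended on the treatment of low signals: it was -1.43 with the percentile taken over detected probes, -1.59 with normexp background correction, and -3.71 without the floor.

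Markers of several other cell types were also lower on the arrays labelled S1pr2-/-, those of eosinophils most. All 6 eosinophil genes that could be tested, out of 7 measured, were lower on both arrays labelled S1pr2-/-, with a median log2 fold change of -4.50, and the seventh, Prg3, was well above background on 1 array. Their intensity, with the seventh gene included, summed to 6.05 and 14.6 times the 75th percentile in wild-type and to 2.36 and 3.69 under the label S1pr2-/-. Most of the sums under that label came from Ear6, which differed far less than the median, by -0.79. Ear6 read 1.81 and 2.73 in wild-type against 1.16 and 1.80 on the others. Smpd3 and the eosinophil sum were both highest on wild-type replicate 2 and next on wild-type replicate 1, and so were the neutrophil, T cell and dendritic cell sums, so this order is shared by 4 marker lists and rests on the 2 wild-type arrays. The eosinophil peroxidase gene Epx read -2.96 and -1.13 in wild-type against -6.64 and -6.50 on the others, and Prg2, the major basic protein gene, read -0.07 and 1.69 against -5.04 and -3.99. Neutrophil markers were lower without overlap for 6 of 9 genes tested, with sums of 85.9 and 96.5 against 69.5 and 63.2. In that list S100a8 and Ltf differed the other way, by 0.25 and 0.36, and overlapped. T cell markers were lower without overlap for 5 of 8, with sums of 12.7 and 13.5 against 12.4 and 9.03. The dendritic cell sums were 10.9 and 13.6 against 9.65 and 9.42, mostly from Ccr7, which differed by -0.47. That list as a whole was near 0, with a median log2 fold change of -0.04 and 2 of 6 genes lower without overlap. In it Flt3, Cd209a and Clec9a differed by 0.28, 0.49 and 0.13, and Zbtb46 and Xcr1 by -0.21 each. Of all genes tested, 21.9% were lower and 22.2% higher without overlap. The part of any of these cells in the Smpd3 signal was not tested.

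**Figure D3:**
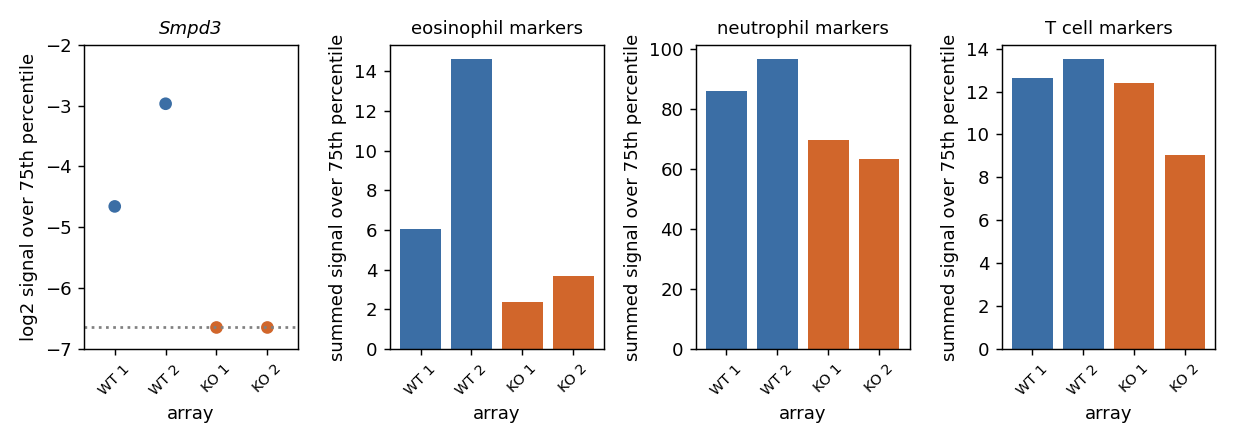
Smpd3 (left, log2 signal over the array's 75th percentile, the dotted line being the floor) and the summed signal over the 75th percentile of eosinophil, neutrophil and T cell markers (bars) on each array (WT, wild-type; KO, labelled S1pr2-/-). Smpd3 and all 3 marker sums are highest on wild-type replicate 2, the neutrophil sum through Retnlg, and both arrays labelled S1pr2-/- have Smpd3 at the floor.

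The other sphingomyelinases did not share this pattern. Smpd1, the acid sphingomyelinase of the lysosome, read 2.57 and 2.47 in wild-type against 2.67 and 2.68 on the arrays labelled S1pr2-/-, higher without overlap by 0.15. The neutral sphingomyelinase Smpd4 was higher without overlap by 0.10. Smpd2, another neutral form, and Smpdl3b, a membrane-anchored relative of the acid enzyme, overlapped at differences of 0.17 and 0.04. Smpdl3a, a secreted relative of acid sphingomyelinase that acts on nucleotides, read 5.26 and 5.31 against 5.52 and 5.44. Its difference of 0.20 was small but lay outside the spread of either pair of arrays (standard error 0.065, adjusted p = 0.521, limma). Without Smpd3, the 35 remaining members had a median log2 fold change of 0.09, with 2 lower at an unadjusted p under 0.05 (5.71%, against 5.96% of all genes tested) and 4 higher (11.4%, against 4.56%).

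Of the 3 ceramidases tested, Asah2 did not overlap and the others did. Asah2, the neutral ceramidase of the cell surface, had the largest difference in the upward direction of any member, at a signal near the lower end of the scale. It read -3.80 and -4.04 in wild-type against -3.39 and -3.39 on the arrays labelled S1pr2-/-. The latter were nearly equal and both above the wild-type arrays, a 1.45-fold higher signal (difference 0.53 on the log2 scale, standard error 0.108, adjusted p = 0.509, limma). A second probe of Asah2 read -4.00 and -4.01 against -3.43 and -3.71, in the same direction by 0.44 (standard error 0.122, adjusted p = 0.516, limma). The difference lay between 0.39 and 0.62 over the other settings with all arrays. The lysosomal acid ceramidase Asah1 was well above background and overlapped, from 2.93 to 3.19 on the wild-type arrays and from 3.06 to 3.13 on the others, with a difference of 0.04 and a 95% interval from -0.32 to 0.40. The alkaline ceramidase Acer3 overlapped as well, with a difference of 0.09.

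The enzymes that strip sugars from glycosphingolipids in the lysosome held differences in both directions. Galc removes galactose from galactosylceramide. It read -2.57 and -2.64 in wild-type against -2.10 and -2.22 on the arrays labelled S1pr2-/-. Both pairs were tight and apart, a 1.36-fold higher signal (difference 0.45 on the log2 scale, standard error 0.078, adjusted p = 0.509, limma). Glb1, the beta-galactosidase that acts on GM1 ganglioside, read 1.69 and 1.67 against 1.99 and 1.95. Each pair was tight, and the difference was 0.29 (standard error 0.057, adjusted p = 0.509, limma), between 0.28 and 0.30 over the other settings with all arrays. Gla, the alpha-galactosidase that acts on globotriaosylceramide and whose flanking sequence holds both TCACGTGA copies, read 6.57 and 6.61 against 6.33 and 6.38. It was lower on both arrays labelled S1pr2-/- by 0.23 (standard error 0.060, adjusted p = 0.515, limma), with a range from -0.25 to -0.16 over the other settings with all arrays.

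The other lysosomal members were closer. Gm2a, the activator that lifts GM2 ganglioside out of the membrane for hydrolysis, read 1.58 and 1.49 in wild-type against 1.81 and 1.65 on the arrays labelled S1pr2-/-, higher without overlap by 0.19 (standard error 0.087, adjusted p = 0.567, limma), and its second probe differed by 0.31 in the same direction (adjusted p = 0.519, limma). Hexa, a subunit of the hexosaminidase that Gm2a serves, was higher without overlap by 0.14. Arsa, the sulfatase that acts on sulfatide, read 3.15 and 2.78 against 3.10 and 3.19, with a difference of 0.19 (standard error 0.158, adjusted p = 0.701, limma). Its wild-type arrays lay further apart than the genotypes did, and the difference was 0.00 without wild-type replicate 2. Psap, the precursor of the saposins that activate several of these hydrolases, overlapped, with 6.40 and 6.28 against 6.09 and 6.38. The lysosomal sialidase Neu1 and the membrane sialidase Neu3 overlapped at -0.02 and -0.10. In all, 4 of these 9 genes were higher without overlap, 1 was lower and 4 overlapped, where 22.2% of all genes tested were higher and 21.9% lower without overlap.

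**Figure D4:**
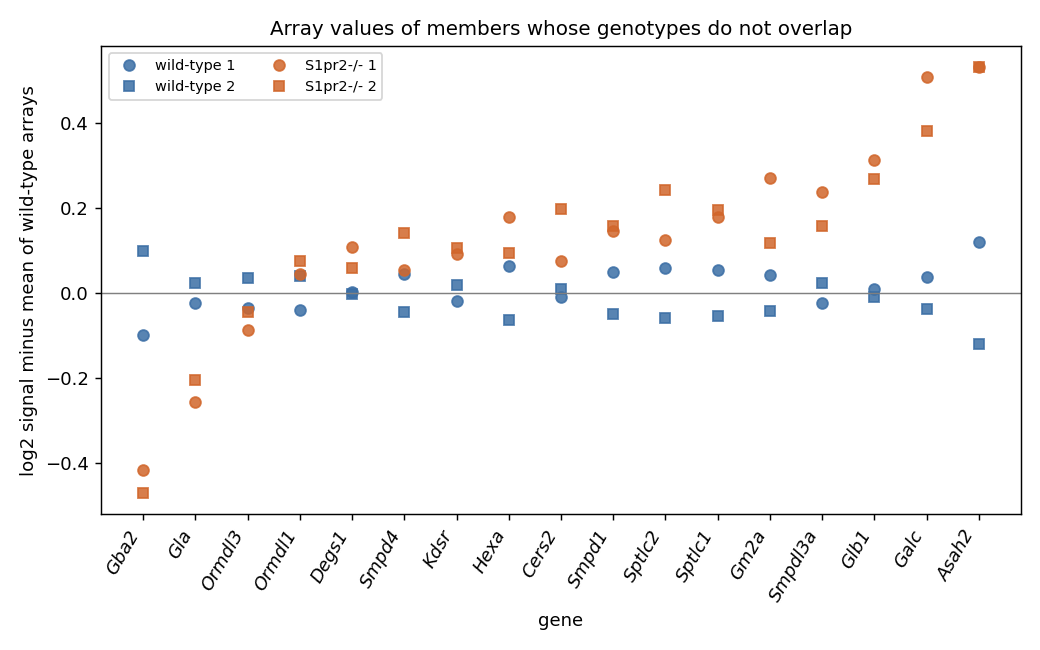
Signal on each of the 4 arrays minus the mean of the wild-type arrays (vertical axis, log2) for the 17 members other than Smpd3 whose genotypes did not overlap, ordered by difference. Gba2, Gla and Ormdl3 lie under the wild-type arrays (blue) and the other 14 above them on the arrays labelled S1pr2-/- (orange), with Asah2 at 0.53 farthest.

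A second list held 50 further genes of the pathway and of processes next to it, such as fatty acid elongation and lysosomal lipid handling, of which 48 were measured and 43 tested. No gene of it was called by limma at an adjusted p under 0.05 (0 of 43), and at an unadjusted p under 0.05 there were 6 higher (14.0%, against 4.56% of all genes tested) and 2 lower (4.65%, against 5.96%). The largest of the higher ones was Gltp, which transfers glycolipids between membranes, with 0.50 and 0.50 in wild-type against 0.85 and 0.98 on the arrays labelled S1pr2-/- (difference 0.42 on the log2 scale, standard error 0.071, adjusted p = 0.509, limma), while its second probe differed by 0.12. The lysosomal cholesterol transporters Npc1 and Npc2 were higher by 0.22 and 0.19, the lysosomal peptidase Tpp1 by 0.19, Aldh3a2, which oxidizes the fatty aldehyde left by S1P breakdown, by 0.19, and Tecr, of fatty acid elongation, by 0.20 (adjusted p between 0.518 and 0.521, limma). Npc1, Npc2 and Tpp1, 3 of the 6, are lysosomal genes that do not act on sphingolipids themselves. Of the 11 genes tested in the part of this list for breakdown, which holds mostly but not only lysosomal genes, 7 were higher without overlap and 0 lower (against 22.2% and 21.9% of all genes tested). On the lower side were A4galt, the synthase of the globotriaosylceramide that Gla breaks down, at -0.46 (standard error 0.125, adjusted p = 0.515, limma), and St8sia1, which makes the ganglioside GD3, at -0.45 (standard error 0.142, adjusted p = 0.519, limma). The counts of this list depended on single arrays, as did those over all genes tested. Without S1pr2-/- replicate 1 the higher count fell in this list and rose over all genes tested, while the lower count rose in this list and fell over all genes tested.

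S1P is made by the kinases Sphk1 and Sphk2. Sphk2 overlapped, with 3.14 and 2.98 in wild-type against 3.11 and 3.14 on the arrays labelled S1pr2-/-, a difference of 0.06. Sphk1 read 0.08 and -0.31 in wild-type against -0.75 and -1.50 on the arrays labelled S1pr2-/-. Both of the latter were lower, but they lay far apart from each other (difference -1.01 on the log2 scale, standard error 0.336, adjusted p = 0.521, limma), and a second probe differed by -0.57 (adjusted p = 0.509, limma). Sphk1 and Sphk2 were named after their values were seen. The lyase that breaks S1P down, Sgpl1, read 5.51 and 5.47 against 5.57 and 5.55, a difference of 0.07.

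Other cell type markers are given beside the same shares of all genes tested (22.2% higher and 21.9% lower without overlap). Of 11 markers of monocyte-derived macrophages, 5 were higher without overlap on the arrays labelled S1pr2-/- and 0 lower, with sums of 247 and 171 in wild-type against 261 and 194 on the others. Of the 14 alveolar macrophage markers, 5 were higher and 2 lower without overlap. Of 9 epithelial markers 6 were lower and of 5 erythroid markers tested 3 were higher without overlap, and the dendritic cell list had 2 lower and the B cell and NK cell lists 1 each. Of the mast cell and basophil markers, 1 was tested, and Fcer1a, Mcpt8 and Ms4a2 were not well above background on any array. The part of these cells in the differences of the members other than Smpd3 was not tested either.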

How the data were processed

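The authors deposited, for each array, the spot intensity written by Agilent Feature Extraction (10.7.3.1 per the labels), with local background already subtracted, and a table of their own log2 values of the same arrays. Per the methods, RNA was amplified with a Cy3 label and values were scaled to the 75th percentile. Here flagged spots were left out, each intensity was scaled to the 75th percentile of its array, floored at 0.01, and put on the log2 scale. Probes were named by accession through RefSeq (27427 of 39429), and the brightest probe stood for a gene. In R 4.3.3, limma 3.58.1 (lmFit, eBayes) was fitted on 27158 probes well above background on both arrays of a genotype, with Benjamini-Hochberg adjustment over all of them. An exact two-sided permutation test of 2 arrays against 2 cannot go below p = 0.333. On simulated data over these probes, 150 of 200 probes changed by 2 and 0 of 200 changed by 1 (log2) were called. The number of arrays limits the precision. No columns of other samples were present (0).

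All members may be named. Statistics were given for members and related genes at an unadjusted p under 0.05, for the 10 members with the largest differences, and for S1pr2; Sphk1, Sphk2, Sgpl1 and Sptlc3 were added after their values were seen. Probes of a member that disagreed in sign are both given. The members and lists were chosen with earlier results of these data known. The alternatives were normalization by quantiles or cyclic loess, the percentile of detected probes alone, normexp, dropping the floor, dropping or tightening the filter, the authors' table, a trended variance, the methods' t-test, a replicate block, each array left out, the mean over a gene's probes and flagged spots kept. normexp used the median signal, as the mean was not in the files, and left out spots with a non-uniform background. The deposited table equalled log2 of the scaled intensity within 0.01 for 100% of probes after a constant of at most 0.0123 per array.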

Additional observations from a re-analysis of the deposited data

How the results depend on the processing

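With 2 arrays per genotype, no simulated difference of 1 on the log2 scale passed the adjusted threshold, and low signals limit the values of Smpd3 and Asah2. No member passed an adjusted p of 0.05 under any setting tried (smallest 0.310), and 34 of 36 members kept their sign under all settings with all arrays, the exceptions being Neu1 and Ormdl2. For changes given here the cause was not tested unless stated. At an unadjusted p under 0.05, 7 members were higher with the percentile over detected probes, where the count over all genes tested rose from 702 to 1096, and with 1 array left out the counts lay between 1 and 4 higher and between 0 and 2 lower. With 1 array left out, 15 to 25 members did not overlap on the higher side and 6 to 9 on the lower side, while of all 15411 genes tested 5020 to 6049 did not overlap on the higher side and 5067 to 5925 on the lower side, since a single array overlaps less readily than a pair. Past 1.5-fold, 1 member (Asah2) was higher under quantile normalization, and 0 to 1 with 1 array left out. On the lower side the count was 0 with the percentile over detected probes, 0 without a filter, 0 with only probes detected on all arrays, where Smpd3 was not tested, 0 with the methods' t-test, and 0 to 1 with 1 array left out. The median over members lay between 0.03 and 0.13 with 1 array left out. Of the related genes, 3 were higher under cyclic loess, 3 under normexp, 1 without the floor, 1 with only probes detected on all arrays, 1 in the authors' table, and 1 to 2 with 1 array left out. On the lower side there was 1 under quantile normalization, 1 with the percentile over detected probes, 0 without a filter, 0 with the methods' t-test, and 1 to 4 with 1 array left out. The S1pr2 probe passed the threshold under normexp, at 2.73 (adjusted p = 0.0198, limma), with adjusted p between 0.0198 and 0.682 over all settings.

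Same-numbered arrays shared only their number (correlation of their deviations 0.187, over 2 pairs). With the replicate number as a block, 3 members were higher and 3 lower at an unadjusted p under 0.05 and 0 at an adjusted p under 0.05 (limma), and 2 related genes were higher and 3 lower, against 636 higher and 850 lower of all 15411 genes tested. The methods' t-test gave 4 members higher and 2 lower at that threshold, against 636 and 625 of all genes tested, and 0 members after Benjamini-Hochberg adjustment.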
